A study of Bos taurus with 12 samples.

Results

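Expression of the type I interferon receptor genes, of an interferon signalling gene and of interferon response genes was examined in bovine conceptuses that themselves make interferon tau. The genes were chosen by symbol: IFNAR1, IFNAR2, IRF1, ISG15, MX1, MX2 and IFI6. Of these 7 genes 6 had a probe set annotated to that symbol alone, 1 each, out of 9155 named genes on the array, while IRF1 had no match in the array annotation and was skipped. A probe set is a group of short DNA probes that together report 1 transcript.

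The conceptuses were collected on day 16 of gestation, when the trophoblast is a long filament that has not yet attached to the uterus. Embryos had been placed in recipient cows on day 7 as blastocysts of 3 origins: produced in vivo after artificial insemination (AI), fertilized and cultured in vitro (IVP), or made by somatic cell nuclear transfer (SCNT), in which an oocyte receives the nucleus of a body cell. The donor fibroblasts were the fourth group (FB), and their tissue field carries the embryo label too, although their description names them as donor cells. Each group had 3 arrays, made from RNA of 10 mg of conceptus or of cultured cells. Neither the breed, the number of donor cell lines nor pooling of conceptuses is given in the sources used here, so p-values reflect only how far arrays of a group lay apart, which may be technical.

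Interferon tau is a type I interferon that the ruminant trophoblast secretes, and it is the signal by which the conceptus prevents the regression of the corpus luteum. It binds the receptor formed by IFNAR1 and IFNAR2, whose kinases JAK1 and TYK2 activate transcription factors, STAT2 and IRF9 among them. In responding cells such as the endometrium and blood leukocytes these turn on interferon-stimulated genes, of which ISG15, MX1 and MX2 are classical examples.

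The level used as the mark of presence was log2 4, which 26.5% to 27.7% of the 24016 probe sets exceeded, depending on the array. The deposited signals had a floor at 2.42 on the log2 scale, and levels near it cannot be told apart. Of 7 trophoblast markers with a probe set, 5 were above log2 4 on every conceptus array and 0 on every FB array, while of 9 fibroblast markers 7 were above it on every FB array and 1, THY1, on every conceptus array. Of 12 leukocyte markers 3 (ITGB2, CD48 and RAC2) were above log2 4 on every AI array, 1 on every IVP array and 0 on every SCNT array, and PTPRC, a defining leukocyte gene, was at 2.42 on all 3 AI arrays. Of 6 uterine epithelial markers 0 were above log2 4 on all arrays of any group.

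All 6 genes lay below log2 4 on all 9 conceptus arrays. Their highest reading there was 2.49, and all 54 readings were within 0.1 of the lowest value in the table. Over all 9155 genes, the brightest probe set lay at or below log2 4 on every conceptus array for 48.9%, so a gene below this mark is common here. Of all single values on the 12 arrays, 49.7% lay within 0.1 of the lowest. The share of genes that close on all 9 conceptus arrays was not taken. None of the 6 passed the filter for testing in conceptuses (above log2 4 on at least 3 of the 9 arrays), and no comparison of AI, IVP and SCNT could be made for them in the main test. Fitting them with no filter adds nothing, since readings at the floor hold no difference to test.

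**Figure D1:**
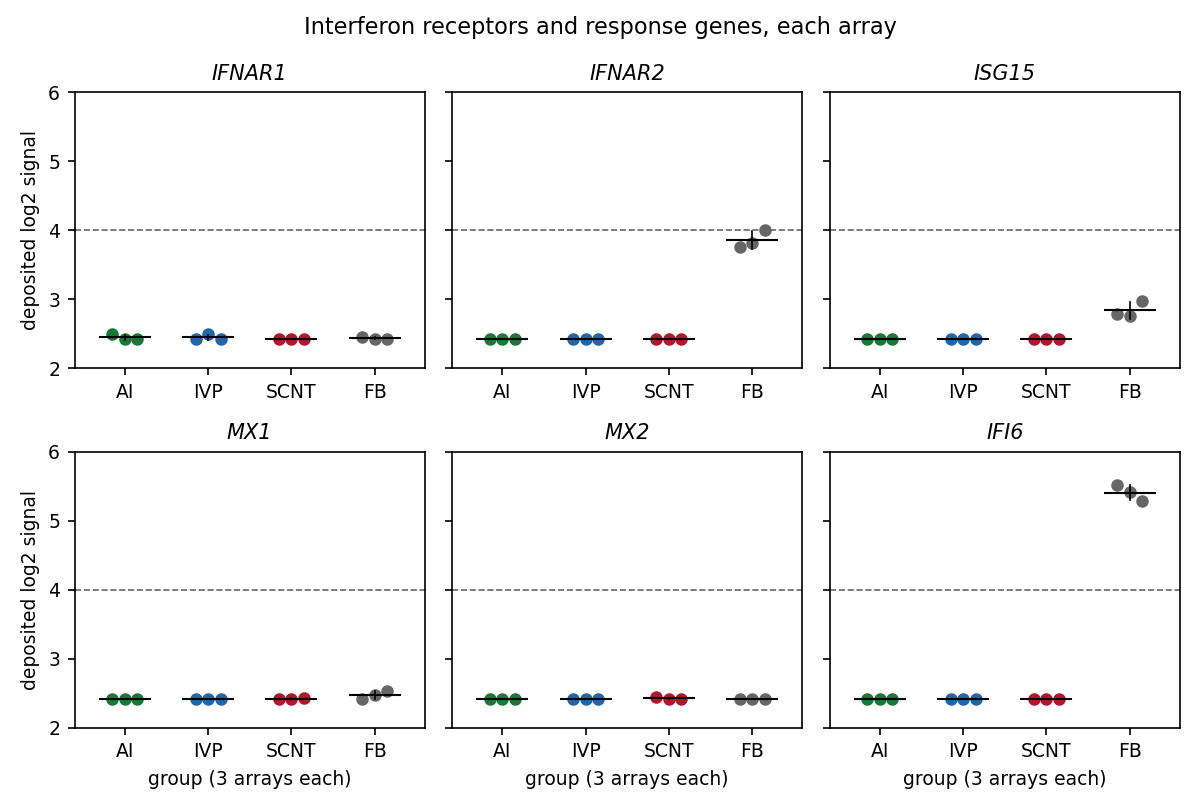
Deposited log2 signal of IFNAR1, IFNAR2, ISG15, MX1, MX2 and IFI6 on each array of AI, IVP, SCNT and FB; points are arrays, horizontal lines means, vertical lines ± 1 SD (n = 3), and the dashed line is log2 4. All conceptus points lie between 2.42 and 2.49, and IFI6 in FB, at 5.29 to 5.51, is the only gene above the dashed line.

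The receptor genes came first in the chain. IFNAR1 (NCBI gene 282257) read 2.49, 2.42 and 2.43 on the AI arrays 1 to 3, 2.43, 2.49 and 2.43 on the IVP arrays, 2.43 on each SCNT array, and 2.45, 2.43 and 2.43 on the FB arrays. These values overlapped between all 4 groups, fibroblasts included. A receptor subunit found on most cell types thus read at the floor in cultured fibroblasts as well, and whether this probe set can report its transcript was not tested.

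IFNAR2 (NCBI gene 282258) read 2.42 on each of the 9 conceptus arrays. On the FB arrays it read 3.76, 3.81 and 3.998, the last just under the presence mark, while the lowest reading above it among the 6 genes was 5.29, of IFI6 in FB. The FB arrays did not overlap the conceptus arrays, but both sides lay below log2 4, so the gene was not tested and no fold is given. In bulk RNA, fewer cells that express a gene and less of its RNA per cell cannot be told apart.

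Of the 4 response genes, IFI6 alone was above the presence mark. IFI6 (NCBI gene 512913), which encodes a small interferon-induced membrane protein, read 2.42 on each of the 9 conceptus arrays and 5.51, 5.42 and 5.29 on the FB arrays. The FB arrays lay far above every conceptus array, and the FB arrays differed among themselves by little. At 5.41 ± 0.11 (SD, n = 3) in FB against 2.42 ± 0.00 in each conceptus group (n = 3 each), IFI6 was at least 2.66-fold lower in AI than in FB (log2 difference -2.99, 95% interval -3.17 to -2.81, limma adjusted p = 7.66e-12). For this bound the conceptus arrays were set to log2 4. The log2 difference and its interval use the deposited values, with the conceptus arrays at the floor. They therefore do not measure the size of the difference. The same bound held in IVP (adjusted p = 7.31e-12) and in SCNT (adjusted p = 7.33e-12), and all 3 comparisons share the FB arrays. IFI6 entered the test through its FB arrays alone, so it had to differ. Beside this 1 tested member, 35.6%, 35.7% and 34.8% of 8164 tested probe sets were lower in AI, IVP and SCNT than in FB.

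ISG15, MX1 and MX2 were below the presence mark in every group. ISG15 (NCBI gene 281871), a ubiquitin-like protein that is attached to other proteins during the interferon response, read 2.42 on each of the 9 conceptus arrays and 2.78, 2.75 and 2.98 on the FB arrays. The FB arrays did not overlap the conceptus arrays but were close to the floor, so no fold is given. MX1 (NCBI gene 280872), a dynamin-like antiviral GTPase, read 2.42 on each AI and IVP array, 2.42, 2.42 and 2.43 on the SCNT arrays, and 2.42, 2.47 and 2.54 on the FB arrays. Its groups overlapped. MX2 (NCBI gene 280873), its close relative and neighbour on the same chromosome, read 2.42 on every array except SCNT 1, at 2.44. Whether the MX2 probe set can report its transcript was not tested.

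With no filter, limma called 3 of the 6 genes (IFI6, IFNAR2 and ISG15) lower in each conceptus group than in FB, beside 19.1%, 19.4% and 18.9% of all probe sets called lower in AI, IVP and SCNT. Both sides of the comparison lay below log2 4 for IFNAR2 and ISG15, so these calls give no size of difference. No gene passed the likeness rule, which asked for a member above log2 4 on all 9 conceptus arrays, so no gene with a similar pattern is named.

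The ligand stood at the other end of the scale. IFNT2, an interferon tau gene, read 13.24, 13.42 and 13.09 on the AI arrays, 13.18, 13.35 and 13.34 on the IVP arrays, 13.20, 13.29 and 13.31 on the SCNT arrays, and 2.73, 2.62 and 2.68 on the FB arrays. The 3 conceptus groups overlapped, and the differences were 0.01 log2 units for SCNT against AI (95% interval -0.27 to 0.29) and 0.04 for IVP against AI (-0.25 to 0.32), neither passing (limma adjusted p = 0.959 and 0.869). The highest signal of any probe set was 13.66, and whether signals this close to it can still show a difference was not tested. Its level was at least 610-fold higher in AI than in FB (limma adjusted p = 1.16e-15), a test it entered through conceptus arrays alone, so it had to differ. The interferon tau genes are so alike that their transcripts can share probes, and which of them was read is uncertain. The other ligands with a probe set, IFNB1 and IFNG, were below log2 4 on all 12 arrays.

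The receptor genes have neighbours with other patterns. In the ARS-UCD2.0 annotation, used here for names and gene order only, IFNAR2, IL10RB, IFNAR1 and IFNGR2 follow each other with 0 protein-coding genes between neighbours. IL10RB encodes the subunit shared by the receptors of interleukin 10 and of type III interferons. It read 5.84, 6.07 and 5.93 on the AI arrays, 5.27, 5.30 and 5.56 on the IVP arrays, 5.05, 4.94 and 5.22 on the SCNT arrays, and 3.91, 3.87 and 3.73 on the FB arrays. Every conceptus array lay above every FB array, and AI lay above both other conceptus groups without overlap. IL10RB was at least 3.86-fold higher in AI than in FB (limma adjusted p = 4.58e-09), and at least 2.60-fold and 2.10-fold higher in IVP and SCNT. It was above log2 4 on no FB array and met the filter through conceptuses alone, so it had to differ.

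IFNGR2, a subunit of the receptor of interferon gamma, went the other way. It read between 2.61 and 2.85 on the 9 conceptus arrays and 7.34, 7.62 and 7.19 on the FB arrays. IFNGR2 was at least 10.4-fold lower in AI than in FB (limma adjusted p = 1.81e-12), with the same bound in IVP and SCNT, and it entered the test through its FB arrays alone. These are values of its brightest probe set, and its other probe set read 2.42 to 2.44 on all arrays, FB included. Of the 4 neighbouring receptor genes, IL10RB was thus the only one above log2 4 in conceptuses and IFNGR2 the only one above it in fibroblasts.

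**Figure D2:**
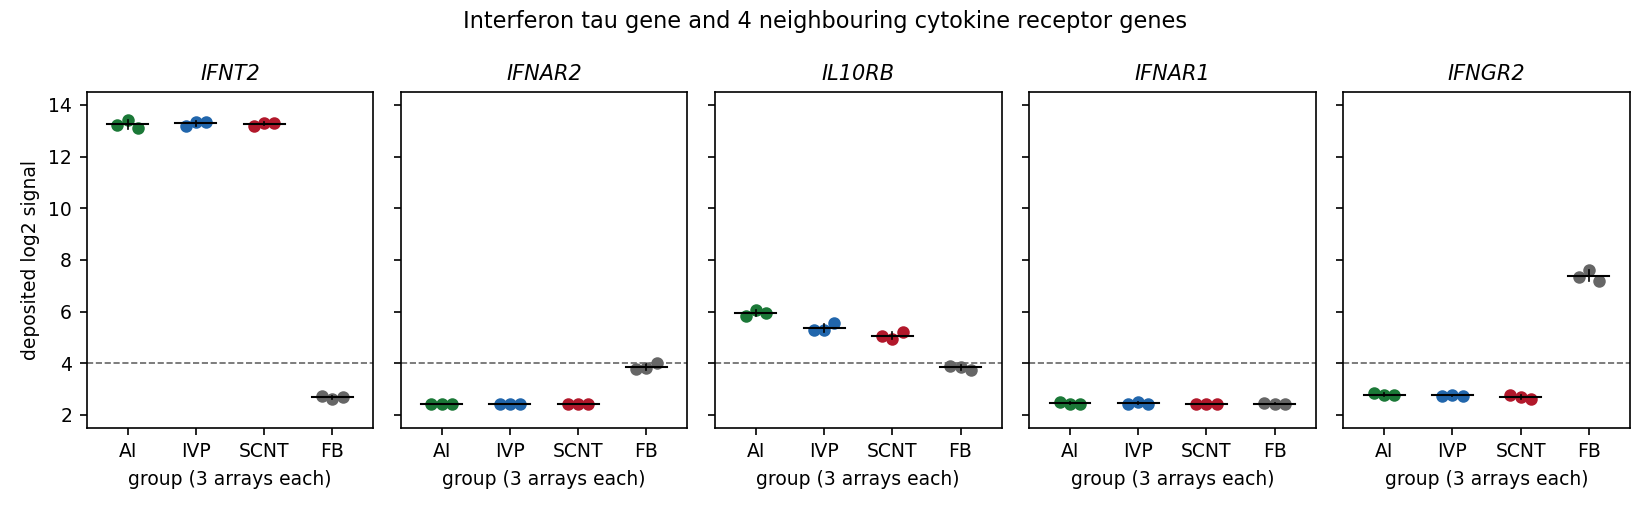
Deposited log2 signal of IFNT2 and of the neighbouring receptor genes IFNAR2, IL10RB, IFNAR1 and IFNGR2 (in gene order) on each array; points are arrays, horizontal lines means, vertical lines ± 1 SD (n = 3), and the dashed line is log2 4. IFNT2 is above 13 on all conceptus arrays, IL10RB is above log2 4 on conceptus arrays and IFNGR2 on FB arrays, while IFNAR1 stays at the floor throughout.

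A wider list of interferon ligand, receptor, sensing, signalling and response genes gave the setting. Of its 103 names 62 had a probe set. The brightest probe set of 44 of the 62 (71.0%) was above log2 4 on no conceptus array, beside 48.9% of all genes. This held for 29 of 37 response genes (78.4%), 7 of 15 signalling genes (46.7%) and 5 of 5 sensing genes. Of the 44 genes 34 were above log2 4 on no FB array either, so their state was not particular to conceptuses. Among the 29 response genes these were 21. The sensing genes were DHX58, MAVS, TLR3, IKBKE and TRAF3, and none was above log2 4 on any array. The interferon-induced genes RSAD2, IFIT2, IFI44, OAS1X, CXCL10 and HERC6 read between 2.42 and 2.61 on all 12 arrays. Whether the probe sets of these and of the sensing genes can report their transcripts was not tested.

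In fibroblasts, 8 of the 62 genes (12.9%, beside 5.53% of all genes) were above log2 4 on all 3 arrays while above it on no conceptus array. The 8 were STAT3, IFI16, IFI35, IFITM1, DTX3L, PARP14, LGALS3BP and IFNGR2. IFITM1, a membrane protein that hinders virus entry, was at 7.12 ± 0.07 in FB against 3.54 ± 0.12 in AI (n = 3 each), at least 8.72-fold lower in AI (limma adjusted p = 2.47e-11). STAT3, a transcription factor of cytokine signalling, was at 6.37 ± 0.16 against 2.46 ± 0.02 and at least 5.18-fold lower in AI (limma adjusted p = 1.81e-12). PARP14, an ADP-ribosyltransferase, was at least 2.26-fold lower in AI (adjusted p = 2.95e-11). These genes too entered the test through FB alone. A second probe set of IFITM1 was near the floor in FB too (mean 2.43). That of STAT3 was at 3.85 in FB against 2.43 in AI.

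**Figure D3:**
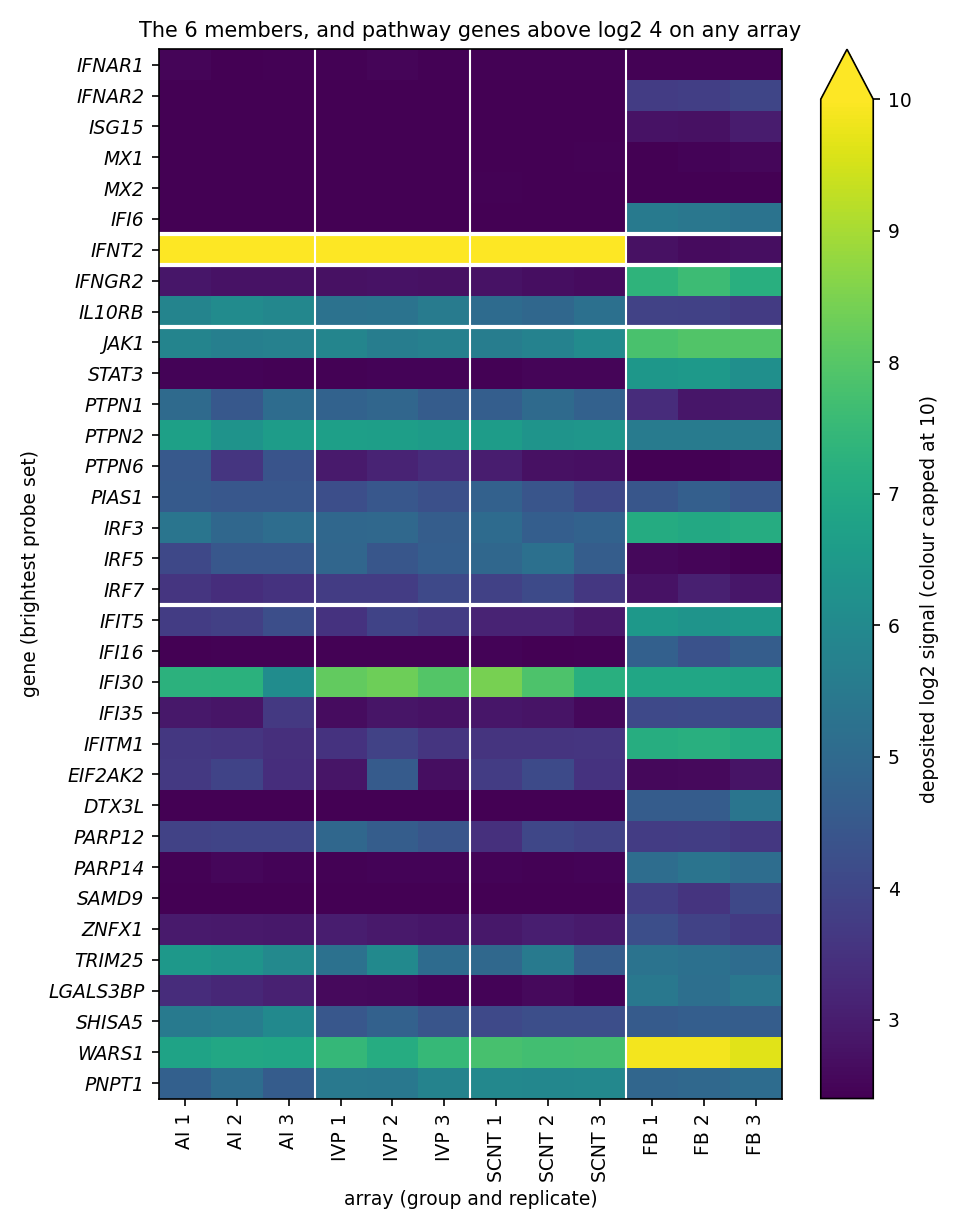
Deposited log2 signal (colour, capped at 10) of the 6 members and, below the white lines, of the ligand, other receptor, signalling and response genes above log2 4 on any array; columns are the arrays of AI, IVP, SCNT and FB. The members are dark across all conceptus columns, where IFNT2 is above the cap, and IFI6, IFNGR2, STAT3 and IFITM1 are bright in the FB columns only.

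The signalling genes of the list were partly present. JAK1, the kinase bound to IFNAR2, was at 5.75 ± 0.07 in AI, 5.73 ± 0.13 in IVP, 5.81 ± 0.23 in SCNT and 7.91 ± 0.07 in FB (log2, n = 3 each). It did not pass between conceptus groups (SCNT against AI 0.06, 95% interval -0.25 to 0.38, limma adjusted p = 0.786) and was 4.45-fold lower in AI than in FB (adjusted p = 5.91e-09). IRF3, which induces interferon genes after infection, was 3.82-fold lower in AI than in FB (adjusted p = 8.20e-08). The phosphatase gene PTPN2, a negative regulator of the pathway, was 1.98-fold higher in AI than in FB (adjusted p = 8.47e-06). STAT2 read between 2.68 and 2.95 and IRF9 between 2.46 and 2.56 on the conceptus arrays, both below the presence mark.

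Of the 23 list genes tested against FB, 7 were higher and 12 lower in AI, 8 higher and 12 lower in IVP, and 7 higher and 13 lower in SCNT. The median difference of the tested list genes was -0.96, -1.33 and -1.35 log2 units, beside 0.11, 0.14 and 0.20 over all tested probe sets. Of the 23 genes 9 did not meet the filter on conceptus arrays: the 8 named above and IFIT5, above log2 4 on 1 conceptus array (AI 3). A further 5 were above log2 4 on no FB array, so these counts partly follow from the filter. Of all tested probe sets 77.2%, 78.7% and 79.9% were called in either direction, and 41.6%, 43.0% and 45.0% were called higher in AI, IVP and SCNT.

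Between conceptus groups, 14 list genes could be tested. In SCNT against AI 3 rose and 3 fell, with 8 not passing, beside 27.6% of 6892 probe sets called (16.2% higher and 11.4% lower). In IVP against AI 4 rose and 2 fell, with 8 not passing, beside 17.9% called (8.42% higher and 9.49% lower). In SCNT against IVP limma called 0 of 14, beside 0.58% of all probe sets. The median difference of the 14 genes was -0.06, 0.01 and -0.03 log2 units in these comparisons, beside 0.08, 0.02 and 0.06 over all. SCNT against AI and IVP against AI share the AI arrays.

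**Figure D4:**
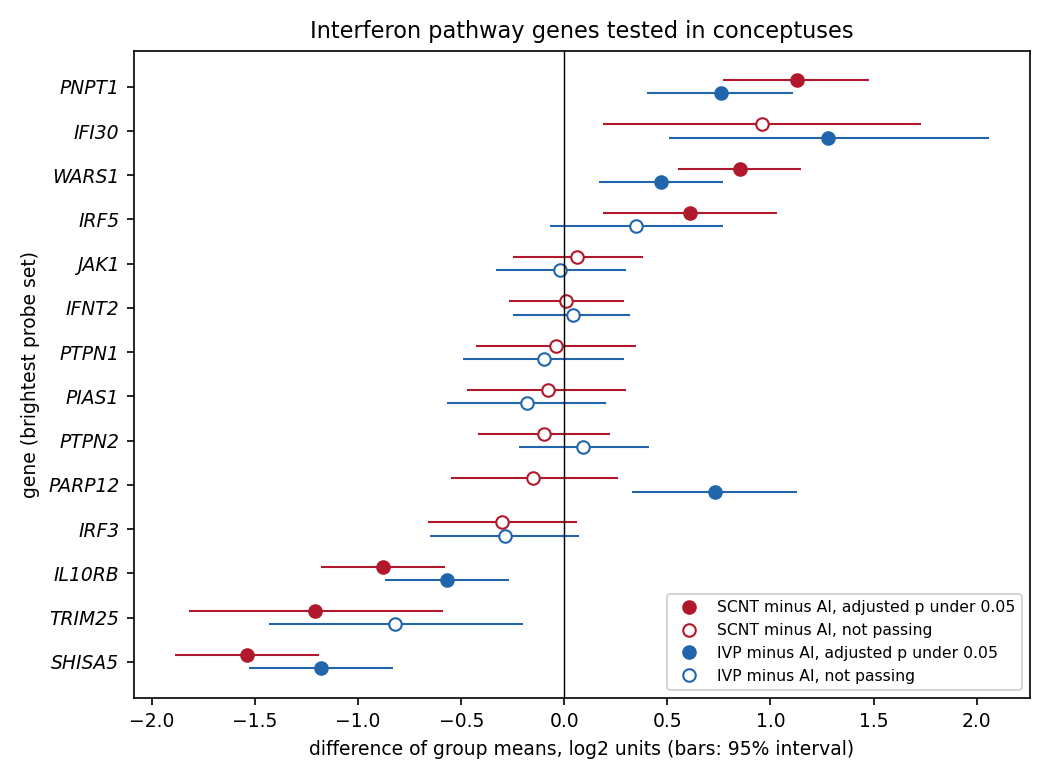
Difference of group means (log2 units) of the 14 list genes tested in conceptuses, for SCNT minus AI (red) and IVP minus AI (blue); bars are 95% intervals from limma, and filled points have an adjusted p under 0.05. SHISA5 and IL10RB lie below 0 and PNPT1 and WARS1 above 0 with filled points in both comparisons, while IFNT2 and JAK1 sit near 0.

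Among the genes that fell, SHISA5, an endoplasmic reticulum protein gene, read 5.53, 5.61 and 6.02 on the AI arrays, 4.46, 4.75 and 4.41 on the IVP arrays and 4.09, 4.22 and 4.23 on the SCNT arrays. All AI arrays lay above all others, and SHISA5 was 2.91-fold lower in SCNT (2.29 to 3.71, limma adjusted p = 1.24e-04) and 2.27-fold lower in IVP (1.78 to 2.89, adjusted p = 8.89e-04). IL10RB was 1.84-fold lower in SCNT (1.49 to 2.26, adjusted p = 0.00143) and 1.48-fold lower in IVP (1.20 to 1.83, adjusted p = 0.0170). TRIM25, a ubiquitin ligase gene of the antiviral RIG-I pathway, was 2.31-fold lower in SCNT (1.51 to 3.54, adjusted p = 0.00992), while in IVP its difference was -0.82 (-1.43 to -0.20, adjusted p = 0.0680). The call of IL10RB in IVP ended without IVP 1 (adjusted p = 0.0616), without IVP 2 (adjusted p = 0.0503), with no filter (0.0597) and without AI 2, IVP 2 and IVP 3, where the spike-in signal was highest (0.0932). That of TRIM25 in SCNT ended with no filter (0.118).

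The summed log2 level of the 12 leukocyte markers was 43.5 to 47.5 in AI, 31.7 to 35.9 in IVP and 31.6 to 35.2 in SCNT. It was thus higher in the same group as SHISA5, IL10RB and TRIM25. The excess came mainly from ITGB2, CD48 and RAC2, with means of 8.47, 5.92 and 8.70 in AI against 4.67, 2.45 and 5.46 in IVP. CD14 was at 3.24 in AI, and the other leukocyte markers, PTPRC among them, had AI means of 2.42 to 2.47. The summed level of the 5 red cell markers was also higher in AI, at 15.8 to 17.5 against 12.2 to 12.4 in both other groups. This came from ALAS2 alone, at 6.80 in AI against 2.63 in IVP and 2.58 in SCNT. The globin genes HBA, HBB and HBG, and AHSP, had means of 2.42 to 2.44 in every group. The 7 trophoblast markers summed lower in AI, 55.6 to 56.7 against 58.6 to 59.5 in IVP and 59.4 to 59.9 in SCNT. The genes that rose in those groups were lower in AI too. Within the list ASCL2 (5.84 in AI, 7.23 in IVP and 7.44 in SCNT), PAG11 and KRT18 were lower in AI. TKDP1 (13.62, 13.55 and 13.50) and TFAP2A (6.88, 6.59 and 6.89) were not lower in AI than in both other groups. ELF5 and KRT8 were below log2 4 on all arrays. The 6 hypoblast markers summed to 34.4 to 36 in AI, 33.7 to 35.1 in IVP and 32.1 to 33.4 in SCNT. As a measure of RNA integrity, GAPDH was read at its 3' and 5' probe sets. The 3' signal was higher by 0.21 to 0.38 log2 units in AI, 0.28 to 0.45 in SCNT and 0.35 to 0.89 in IVP. In FB it was higher by 0.01 to 0.06 only. The mean spike-in signal was 4.33 to 4.62 in FB against 4.92 to 6.01 in conceptuses. The part of these values in the results for list genes was not tested. PTPN6, a phosphatase known mainly from blood cells, read 4.53, 3.58 and 4.38 on the AI arrays, 2.96, 3.17 and 3.35 on the IVP arrays and 2.82 ± 0.15 (SD, n = 3) in SCNT, and with 2 arrays above log2 4 it was not tested.

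Among the genes that rose, PNPT1, whose product is a mitochondrial RNA-processing enzyme, read 4.72, 5.12 and 4.60 on the AI arrays, 5.47, 5.44 and 5.80 on the IVP arrays and 5.94, 5.93 and 5.94 on the SCNT arrays. It was 2.19-fold higher in SCNT (1.71 to 2.80, limma adjusted p = 8.90e-04) and 1.69-fold higher in IVP (1.32 to 2.17, adjusted p = 0.00982), without overlap with AI. With no filter its call in IVP ended (adjusted p = 0.0706). WARS1, the tryptophanyl-tRNA synthetase gene, was 1.81-fold higher in SCNT (1.47 to 2.22, adjusted p = 0.00165) and 1.38-fold higher in IVP (1.12 to 1.70, adjusted p = 0.0369). Of its 3 tested probe sets 2 passed in SCNT and 1 in IVP, and the differences ran from -0.07 to 0.85 and from -0.29 to 0.47.

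IFI30, a lysosomal thiol reductase gene, read 7.29, 7.26 and 6.09 on the AI arrays, 8.18, 8.33 and 7.98 on the IVP arrays and 8.43, 7.89 and 7.19 on the SCNT arrays. It was 2.44-fold higher in IVP (1.42 to 4.17, limma adjusted p = 0.0294), while in SCNT, which overlapped AI, its difference was 0.96 (0.19 to 1.73, adjusted p = 0.0645). PARP12, an interferon-induced ADP-ribosyltransferase gene, was at least 1.58-fold higher in IVP (adjusted p = 0.0203). PARP12 read 3.89 to 3.97 on the AI arrays and 4.39 to 4.95 on the IVP arrays. These are values of its brightest probe set, and its other probe sets read 2.42 to 2.56 on all arrays, IVP included. The brightest met the filter through the IVP arrays, so its call in part follows from the filter. IRF5, a transcription factor gene, was 1.53-fold higher in SCNT (1.14 to 2.04, adjusted p = 0.0370). Several of these calls ended with 1 array fewer: IFI30 without AI 3 or any 1 IVP array (adjusted p from 0.0529 to 0.0801), PARP12 without AI 1, AI 3 or IVP 1 (0.0521 to 0.0733), WARS1 in IVP without AI 1, AI 3, IVP 1 or IVP 3 (0.0858 to 0.120), and IRF5 without AI 1, AI 3, SCNT 1 or SCNT 2 (0.0533 to 0.142). With no filter these 4 calls ended too (adjusted p from 0.0986 to 0.238), and without AI 2, IVP 2 and IVP 3 those of IFI30 (0.170) and WARS1 (0.0720) ended.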

How the data were processed

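Per the labels' protocols, RNA was amplified with a 3' IVT kit and the biotin-labelled product was read on Affymetrix bovine arrays. Values are log2 signals, as deposited by the authors, for 24128 probe sets on 12 arrays. The submitters' processing notes name GCRMA and limma, with no version and no word on joint normalization. Weak probe sets sit at a floor, and 36.9% of values lay within 0.01 of the lowest.

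Here 112 control probe sets were dropped. Of 24016 left, 13292 had 1 gene symbol, 86 several and 10638 none. Of those with 1 symbol 13263 matched a gene ID of ARS-UCD2.0, and 0 symbols changed. A gene is given by its brightest probe set over all arrays.

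A probe set was tested if 3 or more arrays exceeded log2 4, with limma 3.58.1 in R 4.3.3, 6892 over the 9 conceptus arrays and 8164 over all 12 arrays, two-sided, with Benjamini-Hochberg adjustment over all of them; changed means an adjusted p under 0.05. Where a group's mean was below log2 4, its arrays below 4 were set to 4 and the fold is a lower bound. Fits were tested on simulated data. The number of arrays limits the precision, with a median SE of 0.16 between conceptus groups and 0.14 against FB. Named were all members and the list genes changed between conceptus groups (other list genes are examples chosen after their values were seen). Members and lists were chosen with earlier results of these data known. Alternatives were other filters, scalings, a floor, a variance model, other sets of arrays, a replicate block, the omission of each array and, added after the data were seen, of AI 2, IVP 2 and IVP 3, where spike-in signal was highest.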

Additional observations from a re-analysis of the deposited data

How the results depend on the processing

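The presence counts of the 6 members (0 above log2 4 on any conceptus array, 1 on all FB arrays) were the same at log2 5 and after quantile normalization. IFI6 stayed lower in each conceptus group than in FB under all settings run, from -3.05 to -2.94 over the omission of each array. These differences run to the floor and do not measure a size. With no filter the members called against FB rose from 1 to 3 in each of the 3 comparisons, and the probe sets called fell to 984 in SCNT against AI, 484 in IVP against AI and 7 in SCNT against IVP, where more probe sets are adjusted over. Over the omission of each array, those counts ran from 1190 to 1690, from 794 to 1163 and from 9 to 33; the counts were 1190 without SCNT 2 for the first, 794, 798 and 814 without AI 3, IVP 1 and IVP 3 for the second, and 24, 9, 20, 15 and 18 without SCNT 1, SCNT 2, SCNT 3, IVP 2 and IVP 3 for the third. Without AI 2, IVP 2 and IVP 3 they were 580 in IVP against AI and 5 in SCNT against IVP, and with all 12 arrays in the fit 127 in SCNT against IVP; the cause was not tested. In SCNT against IVP 40.0% of calls were higher, 28.6% with centred arrays. Deviations of arrays sharing a number correlated from -0.15 to 0.21 and 4 of 12 arrays correlated best with their own number, so the numbers were not taken as pairs. The replicate block left 23 calls in SCNT against IVP and ended those of IRF5 in SCNT (adjusted p = 0.0610) and WARS1 in IVP (adjusted p = 0.0627) against AI; fitting only those arrays also ended the latter (0.0711). Of 235 refits of 15 named gene differences 205 kept their call, 30 lost it and 0 reversed. IRF5 and PARP12 had too few conceptus arrays above log2 5 to be tested with that filter. Their calls could not be made there, and these cases are not among the refits or the losses. Of the 15 differences 3 were of IFI6 against FB, which had to differ, and all 30 losses were of differences between conceptus groups. Averaging a gene's probe sets changes nothing for members, which have 1 each. Signals near the floor bound what can be said of the members.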
